A study of Mus musculus with 9 samples.

Results

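The 10 genes described here belong to the fibroblast growth factor (FGF) pathway: the receptors Fgfr1, Fgfr2, Fgfr3 and Fgfrl1, the ligands Fgf2 and Fgf18, and the feedback genes Spry1, Spry2, Spry4 and Dusp6. They were chosen by name for their place in the pathway, with earlier results of these data known. Their Ensembl identifiers were found among the 39179 genes listed in each count table through the mouse annotation of genome build GRCm38. RNA came from the ossification front of the femur, where capillaries grow towards the growth plate and new bone is laid down, of Tg(TIE2GFP)287Sato/J mice on the C57BL/6 background, in which the Tie2 promoter drives GFP in endothelial cells. Both groups carried this reporter and no other allele or treatment is given: 5 libraries came from juvenile mice aged 4 weeks and 4 from adult mice aged 12 weeks. Single capillaries were cut out with the cells around them by laser under fluorescence, many pieces were pooled per sample, and the poly-A RNA was amplified and sequenced, so each library is a mixture of endothelial, bone-forming and marrow cells. In such a mixture, fewer cells of a type and less RNA per cell cannot be told apart.

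FGF ligands bind receptor tyrosine kinases at the cell surface, and the kinase passes the signal through adaptor proteins to RAS and the ERK kinases. Sprouty proteins and the phosphatase DUSP6 are made in response to the signal and damp it, so their transcripts are often read as a sign of pathway activity. In bone, FGFR1 and FGFR2 are known from cells of the osteoblast lineage, FGFR3 from growth plate chondrocytes, where it restrains growth, and FGF18 from the perichondrium and osteogenic cells.

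Of the 10 genes, 9 were detected and 9 were tested, and none passed the threshold between the ages (edgeR, adjusted p under 0.05). Over all 13418 genes tested, 3.88% passed it (520 genes), of which 267 were higher in juvenile (1.99%) and 253 in adult libraries (1.89%). Of these calls 51.3% were thus higher in juvenile libraries, and 29.1% when libraries were scaled by their totals alone. Before adjustment, 2 members had a p under 0.05, Fgfr1 and Fgfr2, against 17.3% of all genes. DESeq2 called 0 of the members and 9.47% of all the genes it tested. For no member were the CPM values of the ages without overlap, which was the case for 9.15% of all genes tested. What did differ was the make-up of the receptor pool, by calls that 7 of 12 alternatives did not keep. Per exon base, Fgfr1 took 71.6% ± 4.28 (SD, n = 5) of the receptor counts in juvenile libraries and 56.2% ± 4.12 (SD, n = 4) in adult libraries. The share of Fgfr2 was 10.7% ± 5.16 (SD, n = 5) and 24.8% ± 3.41 (SD, n = 4). Each of these differences had an adjusted p of 0.0397 (exact permutation test, adjusted over 5 shares).

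Juvenile libraries held 4856833 to 7398483 counts and adult libraries 5821596 to 8077362, at which depths 3 counts equal 0.347 to 0.638 CPM, the counts scaled to a common library size, a limit that covers counting error only. The cells around the capillaries differed between the ages as well. Of 15 osteoblast markers, 7 were higher in juvenile and 2 in adult libraries (edgeR, adjusted p under 0.05), with a summed level of 214791 to 267778 CPM in juvenile and 78082 to 118373 CPM in adult libraries, led by the collagen gene Col1a2 (82107 ± 9614 CPM against 34403 ± 6319, SD). All 8 erythroid markers and all 8 tested neutrophil markers were higher in adult libraries, with sums of 419 to 2555 against 4716 to 36998 CPM and of 5.98 to 64.0 against 93.2 to 4425 CPM. Of 8 macrophage markers, 2 were higher in adult libraries, of 8 osteoclast markers 2, of 3 tested megakaryocyte markers 1, and of 8 markers of adipogenic stroma 2, with 1 higher in juvenile libraries. None of 12 endothelial markers passed the test, with sums of 699 to 1125 CPM in juvenile and 847 to 1065 CPM in adult libraries, so the labelled cell type was present at both ages. Counts on Y-linked genes exceeded those on Xist in juvenile replicates 4 and 5, and Xist exceeded them in the other 7 libraries, all adult ones among them.

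The receptors are close relatives, and how well their reads can be told apart bears on every value below. Fgfr1 lies at chr8:25513654-25575718 (plus strand), Fgfr2 at chr7:130162451-133123350 (minus strand), Fgfr3 at chr5:33721674-33737068 (plus strand) and Fgfrl1 at chr5:108692382-108706924 (plus strand) of GRCm38. The long span of Fgfr2 is that of its whole annotation, which shares exon bases with Ctbp2. Its merged exon length comes from the same annotation. The longest identical run between coding sequences of receptors was 26 bases, between Fgfr1 and Fgfr3, and that between Fgfr1 and Fgfr2 was 20 bases. No 75-base word of any member occurred in another member, so a full-length read of 75 bases without errors belongs to 1 of them.

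Fgfr1, a receptor kinase of mesenchymal cells, was the most abundant member. Its level was 439, 414, 413, 424 and 460 CPM in juvenile replicates 1 to 5 and 436, 214, 262 and 229 CPM in adult replicates 1 to 4. The juvenile libraries lay within a factor of 1.11 of each other, 3 adult libraries lay below all of them, and adult replicate 1 lay among them. The log2 fold change, juvenile over adult, was 0.59 (SE 0.21, 95% interval 0.15 to 1.04), a 1.51-fold higher level that did not pass the test (edgeR adjusted p = 0.136). Without adult replicate 1, the log2 fold change was 0.86 (edgeR adjusted p = 0.0129). limma voom with sample quality weights gave 0.73 (adjusted p = 0.0308), and over all alternatives the adjusted p ran from 0.0129 to 0.42.

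Fgfr2, the receptor whose loss or gain disturbs skull and long bone formation, had the opposite direction. Its level was 53.8, 69.9, 37.2, 133 and 50.7 CPM in the juvenile libraries and 186, 108, 93.0 and 132 CPM in the adult libraries. All but 1 of the juvenile libraries lay below every adult library, and juvenile replicate 4 lay within the adult range. The log2 fold change was -0.91 (SE 0.34, 95% interval -1.65 to -0.18), a 1.88-fold higher level in adult libraries (edgeR adjusted p = 0.17). Without juvenile replicate 4, it was -1.29 (edgeR adjusted p = 0.0384), and over all alternatives the adjusted p ran from 0.0384 to 0.327. In the 7 libraries where Xist prevailed, which leave out juvenile replicates 4 and 5, it was -1.27 (edgeR adjusted p = 0.128). The annotation of Fgfr2 shares 314 of its 10328 exon bases with Ctbp2 on the same strand, and reads there cannot be told apart.

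Fgfr3, the receptor that restrains the growth of cartilage, varied more within adult mice than between the ages. Juvenile libraries held 56.4, 22.2, 30.6, 47.9 and 31.6 CPM and adult libraries 73.9, 27.2, 5.44 and 14.4 CPM. The highest and the lowest of all 9 values were both adult, in replicates 1 and 3, a 13.6-fold range. The log2 fold change was 0.32 (SE 0.59, 95% interval -0.95 to 1.58, edgeR adjusted p = 0.862), and it was -0.051 without adult replicate 3 and 1.26 without adult replicate 1. Of the 14 chondrocyte markers, 10 were tested, and 1 was called higher in juvenile libraries, Col11a2, and 1 in adult libraries, Col2a1. The log2 fold change was above 0 for 2 of the 10, and its median was -2.22, towards adult libraries. The sum of the 14 markers was 2495 to 3710 CPM in juvenile and 2016 to 6455 CPM in adult libraries. Col11a2 alone held 1992 to 3336 and 1411 to 1571 CPM of it. Adult replicate 2 had the highest sum and the most Acan, the aggrecan of cartilage matrix (125 CPM), but 27.2 CPM of Fgfr3. Adult replicate 1, the highest in Fgfr3, had 4.62 CPM of Acan, 18.1 CPM of Sox9 and 867 CPM of Col2a1, the main collagen of cartilage. Its markers were mixed. Sox9, Col2a1, Col9a1 (27.7 CPM) and Hapln1 (23.0 CPM) lay above every juvenile library, and Acan, Col10a1 (47.5 CPM) and Col11a2 (1411 CPM) below. Adult replicate 3, the lowest in Fgfr3, had 0 counts of Acan and Sox9, 581 CPM of Col2a1 and 1431 CPM of Col11a2. The part of cartilage cells in the Fgfr3 values was not tested. On the opposite strand, 998 of the 7158 exon bases of Fgfr3 are shared with G630022F23Rik, and the library kit does not mark strand.

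Fgfrl1, a receptor without a kinase domain, had the smallest difference between the ages of all members. Juvenile libraries held 14.5, 16.7, 18.3, 11.1 and 15.9 CPM and adult libraries 13.3, 12.5, 18.7 and 17.3 CPM. The values interleaved, the log2 fold change was -0.01 (SE 0.41, edgeR adjusted p = 0.994), and its 95% interval of -0.90 to 0.87 leaves room for a difference of up to 1.87-fold. The fourth receptor kinase, Fgfr4, had 0 counts in all 9 libraries.

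**Figure D1:**
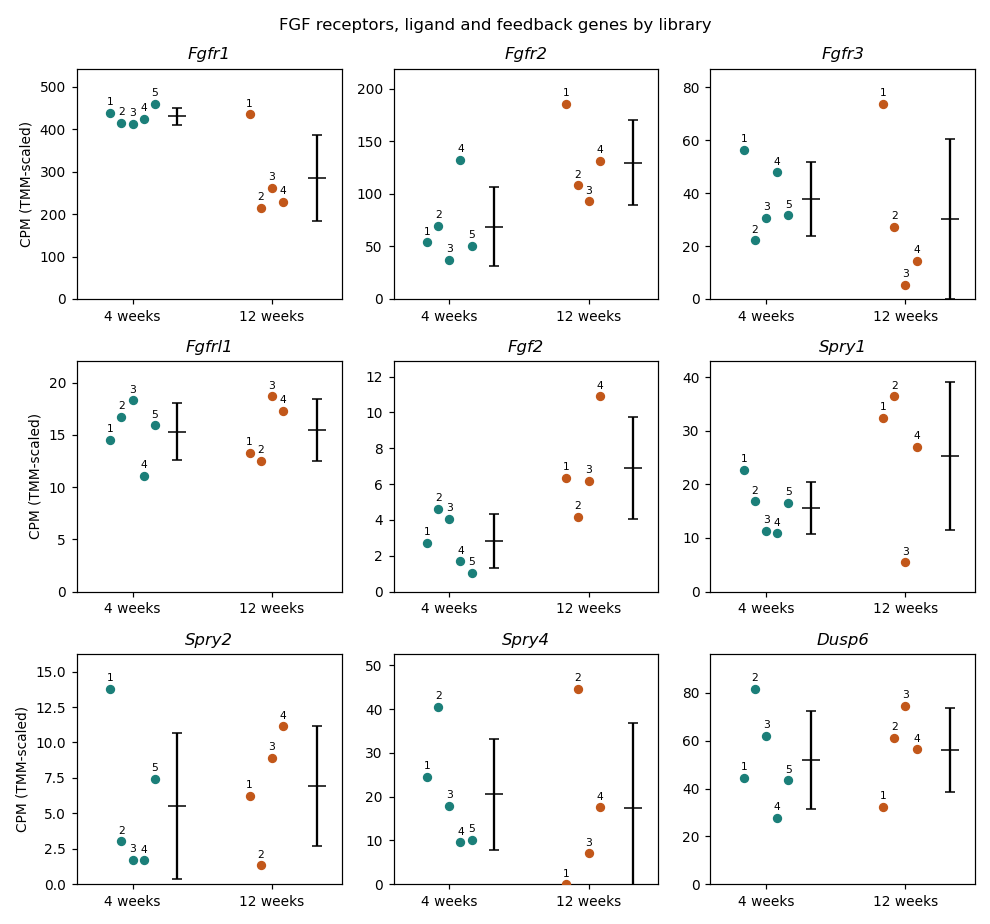
Level of each detected member in CPM (y axis, scaled by the trimmed mean of M values, a separate axis per gene) in the 5 juvenile libraries (4 weeks) and the 4 adult libraries (12 weeks). Points are libraries with their replicate numbers, and bars show the mean and SD, drawn no lower than 0; Fgfr1 was 413 to 460 CPM in every juvenile library and 214 to 436 CPM in adult libraries, and Spry4 had 0 counts in adult replicate 1.

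The receptor pool was then measured within each library, as the counts per exon base of 1 receptor over the sum for Fgfr1, Fgfr2, Fgfr3, Fgfr4 and Fgfrl1. This share does not depend on how libraries are scaled to each other. It does depend on the exon length used for each receptor, as does any ratio of receptors per exon base. Fgfr1 took 70.8%, 72.6%, 74.3%, 64.7% and 75.6% of the pool in juvenile replicates 1 to 5 and 57.1%, 53.6%, 61.6% and 52.5% in adult replicates 1 to 4. The ages did not overlap, although juvenile replicate 4 came within a few points of adult replicate 3. Of all single genes tested, 9.15% had no overlap in CPM, and no such rate for shares is given here. The mean share was 15.4 points lower in adult libraries (two-sided exact permutation test over 126 splits, p = 0.0159, adjusted over the 5 shares p = 0.0397).

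Fgfr2 made up 8.31%, 11.7%, 6.40%, 19.3% and 7.96% of the pool in the juvenile libraries and 23.3%, 25.9%, 21.0% and 28.9% in the adult libraries. Again no adult library lay within the juvenile range. The mean share was 14.0 points higher in adult libraries (exact permutation test, p = 0.0159, adjusted over the 5 shares p = 0.0397). Merged exons of Fgfr2 cover 10328 bases, but its longest coding transcript has 3323. With transcript lengths, the Fgfr2 share was 19.4 points higher and the Fgfr1 share 19.0 points lower in adult libraries (exact permutation test, adjusted p = 0.0397 for both). Adult replicate 1, which was in the juvenile range for the level of Fgfr1, lay outside the juvenile range for both shares, and its Fgfr2 level was the highest of all 9 libraries. The shares of a pool sum to 100%, so these are not independent results.

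For Fgfr3 the shares overlapped, 5.36% to 12.5% in juvenile and 1.77% to 13.4% in adult libraries (exact permutation test, p = 0.659, adjusted p = 0.823). They overlapped for Fgfrl1 as well, at 5.99% to 11.7% and 6.19% to 15.6% (exact permutation test, p = 0.254, adjusted p = 0.423). Set directly against each other, Fgfr1 exceeded Fgfr2 per exon base by a factor of 8.53, 6.20, 11.6, 3.35 and 9.50 in the juvenile libraries and of 2.45, 2.07, 2.94 and 1.82 in the adult libraries. Every juvenile ratio was above every adult ratio, and the ages differed by a factor of 3.16 (exact permutation test, p = 0.0159, where the smallest possible p was 0.00794). This ratio was not among the planned comparisons, and its p was not adjusted. It uses the same counts as the shares of Fgfr1 and Fgfr2, so it is no further result beside them.

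The design bears only limited loss of libraries. The difference in the Fgfr1 share was 14.1 to 17.2 points with any 1 library left out, but the call was lost without any 1 of the 5 juvenile libraries (adjusted p = 0.0714) and without adult replicate 4 (adjusted p = 0.0893). The same libraries ended the call for Fgfr2, with differences of 12.7 to 16.2 points and the same adjusted p-values. With 4 libraries against 4, the smallest p the exact permutation test allows is 0.0286 before adjustment. Both shares had this p without each juvenile library. With only these shares at it, adjustment over the 5 shares gives 0.0714, so those losses were set by the number of libraries. Both calls were also lost in the 7 libraries where Xist prevailed (adjusted p = 0.0714), where each share again had the smallest p the exact permutation test allows. Markers of osteoblasts, chondrocytes, stroma, erythroid cells, neutrophils, macrophages, osteoclasts and megakaryocytes moved with age beside these shares, and their part was not tested. Among 5 genes listed as osteocyte markers, edgeR called only Dmp1 (log2 fold change 1.93, edgeR adjusted p = 0.00203). Of the 5, 3 had values above 0, whereas Mepe (-1.26) and Sost (-3.40) lay below. Sost had an edgeR adjusted p of 0.0881 and a DESeq2 adjusted p of 0.00772. The study found Dmp1 mRNA mainly in osteoblasts of the ossification front and no Sost there, so Dmp1 is not read here as an osteocyte marker.

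**Figure D2:**
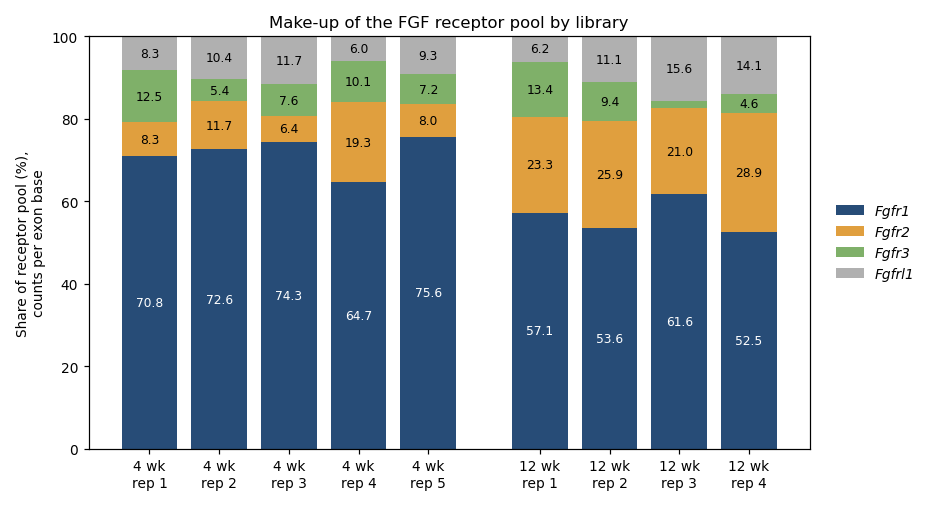
Make-up of the FGF receptor pool in each library, as the share of the summed counts per exon base (y axis, %) taken by each receptor, for 5 juvenile (4 wk) and 4 adult (12 wk) libraries; the numbers in the bars are the shares. The Fgfr1 share was 64.7% to 75.6% in juvenile and 52.5% to 61.6% in adult libraries, and the Fgfr2 share 6.40% to 19.3% and 21.0% to 28.9%.

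Among the ligands, Fgf2 (basic FGF, at chr3:37348346-37410108), which binds several FGF receptors and is kept in the matrix, was the only member detected. Its counts were low, 5 to 32 per juvenile library and 25 to 87 per adult library. They correspond to 2.72, 4.61, 4.04, 1.69 and 1.06 CPM in juvenile replicates 1 to 5 and to 6.36, 4.18, 6.19 and 10.9 CPM in adult replicates 1 to 4. All but 1 of the juvenile libraries lay below every adult library, with juvenile replicate 2 above adult replicate 2. The log2 fold change was -1.28 (SE 0.74, 95% interval -2.89 to 0.33, edgeR adjusted p = 0.423). Nudt6 on the opposite strand shares 640 of the 6782 exon bases of Fgf2, so a part of these reads may belong to it.

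Fgf18 (chr11:33117430-33147400), the ligand of perichondrium and osteogenic cells, had 0 counts in all 9 libraries. This allows a level of up to 0.347 to 0.638 CPM, depending on the library. It was therefore not detectable at these depths and could not be tested.

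None of the 4 feedback genes passed the test, and their log2 fold changes lay between -0.69 and 0.25. Spry1 (chr3:37639947-37644598), an inhibitor of RAS signalling, was at 22.7, 16.9, 11.3, 10.9 and 16.5 CPM in juvenile libraries and at 32.4, 36.4, 5.44 and 26.9 CPM in adult libraries. In 3 of the adult libraries it lay above all juvenile ones, and in adult replicate 3 below them, and the log2 fold change was -0.69 (SE 0.51, edgeR adjusted p = 0.567). On the opposite strand, 710 of its 2906 exon bases are shared with Gm42922.

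Spry2 (chr14:105891947-105896819), its close relative, was at 13.8, 3.03, 1.70, 1.69 and 7.42 CPM in juvenile and at 6.24, 1.34, 8.91 and 11.2 CPM in adult libraries. The ages covered almost the same range, and the log2 fold change was -0.32 (SE 0.87, 95% interval -2.20 to 1.55, edgeR adjusted p = 0.913). With a library left out it ran from -0.998 (without juvenile replicate 1) to -0.012 (without adult replicate 4). These values rest on 8 to 76 counts per juvenile and 8 to 89 counts per adult library.

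Spry4, on chromosome 18, was the member with the widest spread among adult libraries. Juvenile libraries held 24.5, 40.5, 17.9, 9.57 and 10.2 CPM, whereas adult libraries held 0, 44.6, 7.05 and 17.5 CPM. Adult replicate 1 had 0 counts, which allows up to 0.347 CPM, although it was the deepest library, and adult replicate 2 had 267 counts and the highest level of all. The log2 fold change was 0.25 (SE 0.98, 95% interval -1.86 to 2.37, edgeR adjusted p = 0.946), and it was -0.18 without adult replicate 1, -0.15 without juvenile replicate 2 and 1.31 without adult replicate 2.

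Dusp6 (chr10:99263231-99267489), the phosphatase that inactivates ERK, was the most abundant of the feedback genes per exon length. It was at 44.6, 81.7, 62.1, 27.8 and 43.5 CPM in juvenile and at 32.4, 61.3, 74.7 and 56.4 CPM in adult libraries. All adult values lay within the juvenile range, and the log2 fold change was -0.11 (SE 0.33, 95% interval -0.83 to 0.61, edgeR adjusted p = 0.925). Between juvenile libraries its level differed by a factor of 2.94, more than its 1.08-fold difference between the ages.

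The spread within an age differed widely between the members. On the log2 CPM scale, the SD of Fgfr1 among juvenile libraries was 0.06, the smallest of the members, and that of Spry2 was 1.24, the largest. Among adult libraries, Fgfrl1 had the smallest SD (0.28) and Spry4 the largest (3.12), followed by Fgfr3 (1.55), Spry2 (1.26) and Spry1 (1.25). The median over the 9 tested members was 0.58 in juvenile and 0.54 in adult libraries, beside 0.51 and 0.70 over all genes tested.

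Levels of different genes were compared as CPM per kb of exon, averaged over the 9 libraries. Fgfr1 stood first with 37.0 ± 10.1 (SD, n = 9), and Dusp6 second with 17.2 ± 5.84. Fgfr2 (9.29 ± 4.70), Spry1 (6.86 ± 3.59), Fgfrl1 (5.52 ± 0.96), Fgfr3 (4.81 ± 3.0), Spry4 (4.01 ± 3.17) and Spry2 (2.94 ± 2.18) followed within each other's spread. Fgf2 was last with 0.684 ± 0.437 CPM per kb. The place of Fgfr2 depends on the length used, since its merged exons cover 10328 bases and its longest coding transcript 3323. For Dusp6 these lengths are 3132 and 2796 bases. An order by transcript length is not reported here.

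In this order, Fgfr1 was above Dusp6 and Spry2 above Fgf2 in 9 of 9 libraries. The neighbours between them could not be ordered, since Dusp6 was above Fgfr2 in 7 libraries, Fgfr2 above Spry1 in 5, Spry1 above Fgfrl1 in 4, Fgfrl1 above Fgfr3 in 6, Fgfr3 above Spry4 in 5 and Spry4 above Spry2 in 4. Fgfr2 was above Spry1 in 2 of 5 juvenile and in 3 of 4 adult libraries, a difference that was not tested.

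**Figure D3:**
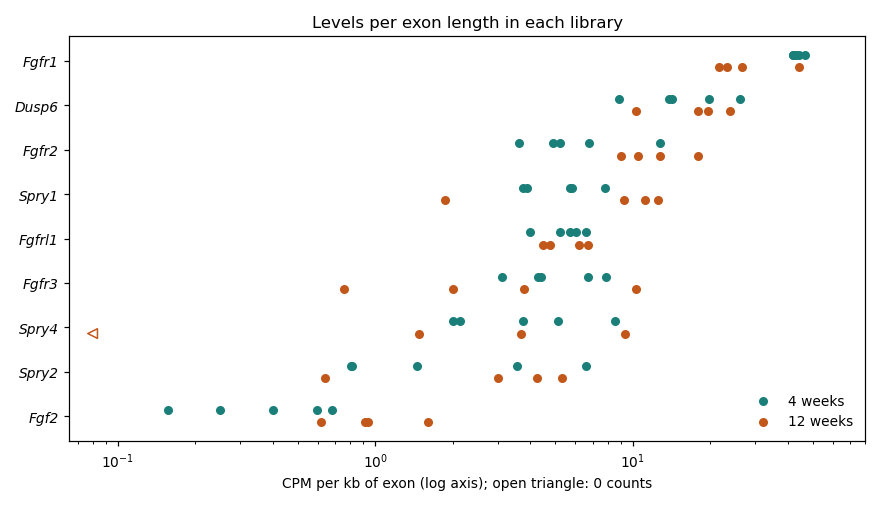
CPM per kb of exon (x axis, log scale) of the 9 detected members in each juvenile (4 weeks) and adult (12 weeks) library, ordered by the mean over all libraries; the open triangle at the left edge marks the 0 counts of Spry4 in adult replicate 1. Fgfr1 was above every other member in 9 of 9 libraries, and Fgf2 was below Spry2 in 9 of 9.

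Because capillaries were cut with the bone-forming cells around them, the members were also set against the osteoblast markers, as log2 CPM of the member minus the mean log2 CPM of the 15 markers. That mean was itself higher in juvenile libraries, at 10.83 ± 0.03 (SD, n = 5) against 10.36 ± 0.22 (SD, n = 4), a difference of 0.46 (exact permutation test, p = 0.00794, the smallest possible). It averages markers of opposite direction. The log2 fold change was above 0 for 13 of the 15, led by Col1a1 (1.37), but was -2.04 for Bglap and -2.38 for Bglap2. On this scale Fgfr1 differed by 0.19 between the ages (exact permutation test, p = 0.286, adjusted p = 0.418), and its difference was 0.079 without adult replicate 2, 0.36 without adult replicate 1 and 0.40 with the median of the markers in place of their mean (exact permutation test, p = 0.00794, adjusted p = 0.0714). Fgfr2 stood 1.47 higher in adult libraries (exact permutation test, p = 0.0238) and Fgf2 stood 1.74 higher (p = 0.0159), but neither held after adjustment over the 9 members with counts (adjusted p = 0.107 for both). With the median of the markers, juvenile minus adult was -1.25 for Fgfr2 and -1.53 for Fgf2 (exact permutation test, adjusted p = 0.143 for both). For the other members the adjusted p was 0.214 to 0.675.

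Next to the members stood 74 other genes of the pathway with an entry in the files, 52 of which were tested. None of them passed the threshold (edgeR, adjusted p under 0.05), where 3.88% of all genes did. Before adjustment 2 of the 52 had an edgeR p under 0.05, Fos among them, where 17.3% of all genes did. DESeq2 called 1 of 53, Fos, where it called 9.47% of all the genes it tested. Fos was named after its values were seen. Fos, an early target of ERK signalling, was at 20.7 ± 16.0 CPM (SD, n = 5) in juvenile and 71.3 ± 45.8 CPM (SD, n = 4) in adult libraries (log2 fold change -1.78, SE 0.61, edgeR adjusted p = 0.134, DESeq2 adjusted p = 0.0406). The median log2 fold change was -0.11 over the 9 members, 0.10 over the 52 pathway genes and -0.01 over all genes tested.

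Other secreted ligands had few counts. Of 16, 11 had 0 counts in every library, Fgf23 and Fgf8 among them, and 2 were tested. Fgf7, a ligand made by mesenchymal cells, was at 3.34 ± 4.36 CPM (SD, n = 5) in juvenile and 7.56 ± 5.64 CPM (SD, n = 4) in adult libraries (edgeR adjusted p = 0.727). Fgf1, which can bind all FGF receptors, was at 3.63 ± 3.67 and 2.45 ± 2.76 CPM (edgeR adjusted p = 0.89). Of the 4 intracellular FGFs, which are not secreted, Fgf13 was at 12.6 ± 7.35 and 3.89 ± 7.23 CPM and Fgf11 at 4.74 ± 2.80 and 4.68 ± 3.60 CPM, and neither passed the test (edgeR adjusted p = 0.601 and 0.995).

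Of 9 receptor partners, 4 were tested, and Flrt2 and Flrt3, membrane proteins that interact with FGF receptors, were the highest. Flrt2 was at 41.0 ± 13.4 CPM in juvenile and 36.1 ± 18.3 CPM in adult libraries (edgeR adjusted p = 0.88), and Flrt3 at 10.7 ± 3.94 and 3.70 ± 4.23 CPM (edgeR adjusted p = 0.517). Klb, a coreceptor for endocrine FGFs, had 0 counts throughout, and its relative Kl had 12 counts in all libraries together.

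The genes that relay the signal inside the cell were all expressed and lay close together: of 19 tested, the log2 fold changes ran from -0.37 to 0.45 with a median of -0.09. Map2k2, the kinase that activates ERK, was at 196 ± 13.3 CPM in juvenile and 170 ± 32.1 CPM in adult libraries (edgeR adjusted p = 0.613).

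Of the other feedback genes, 10 were tested, with a median log2 fold change of 0.21. Rasa1, which switches RAS off, was at 115 ± 18.4 and 85.4 ± 21.1 CPM (edgeR adjusted p = 0.349), and Spred1, a relative of the Sprouty proteins, at 83.3 ± 24.8 and 59.4 ± 6.27 CPM (edgeR adjusted p = 0.321). All 15 ETS factors and early targets were tested, with a median of 0.26. Ccnd1, the cyclin of early cell cycle entry, was at 158 ± 28.0 and 149 ± 56.5 CPM (edgeR adjusted p = 0.91), and Ets1 at 96.2 ± 18.6 and 73.4 ± 10.5 CPM (edgeR adjusted p = 0.369).

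**Figure D4:**
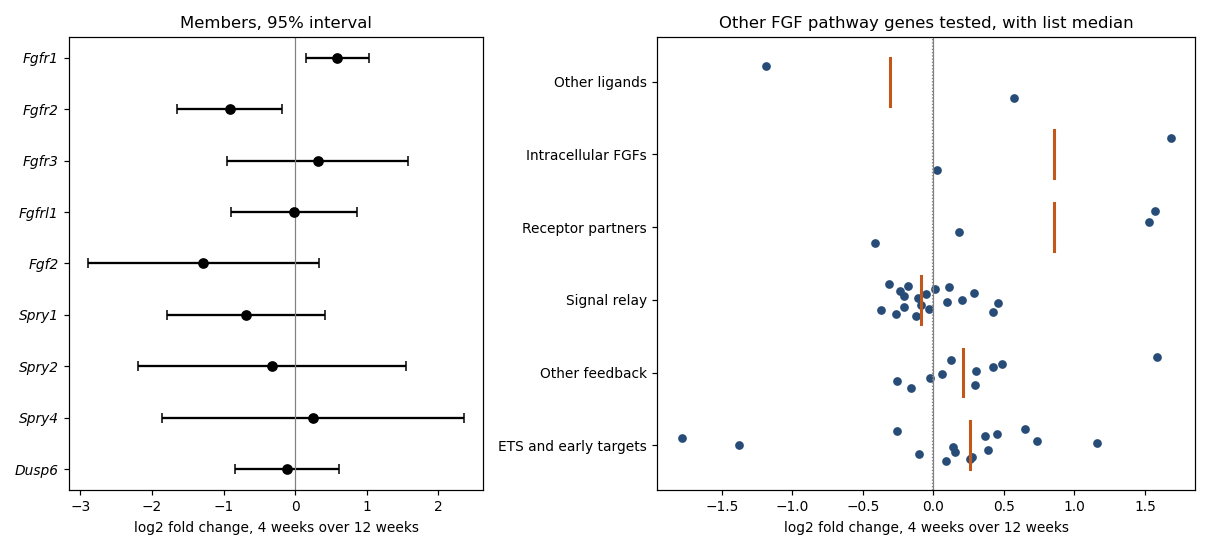
Left, log2 fold change (x axis, juvenile over adult) of the 9 tested members with the 95% interval as bars; right, log2 fold change of the 52 other pathway genes tested, 1 point per gene, with the median of each list as a vertical bar. The intervals of Fgfr1 (0.15 to 1.04) and Fgfr2 (-1.65 to -0.18) do not reach 0 before adjustment, and no gene shown passed the threshold after it.

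For each receptor and for Fgf2, the tested gene with the most similar profile over the 9 libraries was found, by the root mean square difference of log2 CPM after each gene was centred on its mean. Fgfr1 was nearest to Slc35a2, which encodes a transporter of UDP-galactose, with a difference of 0.14 against a median of 0.79 over all genes. Fgfrl1 was nearest to Eif3c, a subunit of a translation initiation factor (0.11 against 0.71). The others had less close neighbours, with 0.35 between Fgfr2 and Ccdc32 (median 1.01), 0.32 between Fgfr3 and Scaper (median 1.25), and 0.31 between Fgf2 and P2rx4, an ATP-gated ion channel (median 1.14).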

How the data were processed

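RNA of microdissected capillaries with surrounding cells was purified with a PicoPure kit, converted to cDNA with SMART-Seq v4, tagmented with Nextera XT and sequenced as 75-base paired-end reads. Reads were mapped by the authors to mm10 (GRCm38) with TopHat2 and Bowtie2. The submitters' processing notes name featureCounts, and the authors deposited 1 table of whole-number counts per gene and library, without normalisation. Its strand setting, read-pair handling and annotation release are not given in the sources used here. The study describes libraries of an age as different mice, both sexes together, and ages were taken from the labels, which give no batch or date. By Xist and Y-linked counts, however, only the juvenile libraries were mixed and every adult library had more Xist. Sex and age are thus partly confounded.

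Of 39179 genes listed, 37607 had an entry in GENCODE M21, and 21512 had counts. The deposited counts of both ages were tested in R 4.3.3 with edgeR 4.0.16 (filterByExpr defaults, TMM scaling, quasi-likelihood F test, Benjamini-Hochberg over all 13418 genes tested, threshold 0.05), without covariates. CPM used the TMM-scaled totals of the genes kept, and log2 CPM a prior count of 2. Receptor shares used merged exon lengths. Single values were compared with two-sided exact permutation tests over all 126 ways to divide the libraries into 5 and 4. Fgf18, at 0 counts, has no value relative to the osteoblast markers, so adjustment there was over 9 members and not 10. Alternatives were DESeq2 1.42.0, limma 3.58.1 voom, other scalings and filters, a replicate block, other lengths and pools, and each library left out in turn. The fits were tested on simulated counts. In 36 pairs of libraries no copies were found. Figures were drawn with matplotlib 3.10.9.

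The members, gene lists and marker lists were chosen with earlier results of these data known. Named were all members, the 2 genes of each pathway list with the highest mean log2 CPM and any that passed the threshold, the nearest profile of each receptor and ligand, and the leading gene of each marker list described. Fos, Etv4, Kl, Klb, Fgf8, Fgf23 and single markers were named outside this rule, after their values were seen. Spry3 was not analysed here, and some items that these rules pick are not reported here.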

Additional observations from a re-analysis of the deposited data

Results flagged for a closer look

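In 2 of 44 groups of 4 or 5 libraries examined, 1 library lay far from the rest of its age by Dixon's criterion at 95%, where chance gives about 2.2. Both concern feedback genes relative to the osteoblast markers, in log2 units. Spry1 stood at -8.00 in adult replicate 3, against -5.49 to -5.15 in the other adult libraries. Dusp6 stood at -5.49 in adult replicate 1, against -4.40 to -4.23 in the others.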

How the results depend on the processing

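Of 347 recomputed values, 303 kept their direction and their side of the threshold or, for counts of genes, stayed within 1.5 times the reported count. The number of members called was 0 to 1 with a library left out, since Fgfr1 (log2 fold change 0.46 to 0.86) was called without adult replicate 1 and Fgfr2 (-1.29 to -0.70) without juvenile replicate 4, and 1 under limma voom (Fgfr1, 0.73). For pathway genes it was 0 to 1 with a library left out (Etv4, without adult replicate 4) and 1 under DESeq2 (Fos). For all genes it was 262 to 651 with a library left out, 1490 under DESeq2, 89 with the replicate block and 73 in the 7 libraries where Xist exceeded the Y-linked genes. Library totals without TMM gave 677, moved the median gene by -0.17, and turned the share of calls higher in juvenile libraries from 51.3% to 29.1%. The log2 fold changes near 0 turned. Fgfrl1 ran from -0.12 to 0.082 with a library left out and was 0.10 in the 7 libraries, where Dusp6 was 0.16. Left-out libraries gave -0.34 to 0.047 for Dusp6, -0.051 to 1.26 for Fgfr3 and -0.18 to 1.31 for Spry4. The share of Fgfr3 ran from -0.56 to 3.31 points, juvenile minus adult, and relative to the osteoblast markers Fgfr3 ran from -0.30 to 0.93 and Spry4 from -0.52 to 1.93. The share of Fgfr1, juvenile minus adult, was 14.1 to 17.2 points with a library left out and 16.4 in the 7 libraries, and that of Fgfr2 -16.2 to -12.7 and -16.0. Neither call was kept in the 7 libraries (adjusted p = 0.0714), where both shares had the smallest p the exact permutation test allows. The cause of the other moves was not tested, beyond the smaller numbers of libraries.

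Replicate numbers did not pair the libraries: deviations from the age means correlated at r of -0.03 to 0.03 between libraries of the same number. With the replicate block, Fgfr1 was 0.63 and Fgfr2 -0.93 on the log2 scale, and the block changed the call of no member. The 95% intervals of Fgf2 and Spry2, both with low counts, reach 7.42-fold and 4.59-fold. That of Spry4, the member with the widest spread among adult libraries, reaches 5.15-fold. Spry2 also had an SD of log2 CPM of 1.24 in juvenile and 1.26 in adult libraries. The parts of low counts and of spread between libraries in these intervals were not tested. The 9 libraries limit every exact test to a p of 0.00794 or more.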
